A study of Mus musculus with 12 samples.

Results

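The 10 genes described here are the EGF receptor genes Egfr, Erbb2 and Erbb3, the receptor inhibitor Errfi1, the ligands Areg, Hbegf, Tgfa and Nrg4, the HGF receptor Met and its ligand Hgf. They were chosen by name from the 32285 genes measured, and all 10 passed the filter of at least 10 counts in hepatocyte nuclei and in endothelial nuclei. Single nuclei were sequenced from liver tissue (Liver, L), from the hepatocyte-enriched cells obtained right after perfusion and collagenase digestion (Cell Suspension, CS) and from hepatocytes kept on collagen for 24 hours (Primary Hepatocytes, PH). Each of 8 livers gave 1 sample of each kind, 24 samples and 53467 nuclei in all, so that a mouse number stands for 1 liver. The animals were wild type males aged 10 to 12 weeks, and the strain is C57BL6J by the labels and C57BL/6NTac by the study's methods. All livers were perfused with an EGTA buffer before the biopsy of the Liver sample was frozen, so the Liver samples had also been perfused. The culture medium held serum, insulin and dexamethasone, no EGF or HGF was named among its components, and the cultured cells were harvested with trypsin.

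Levels are counts of unique molecular identifiers (UMIs, 1 for each captured RNA molecule) per 1000000 UMIs of a sample's nuclei of 1 cell type (CPM). Between samples they were scaled by edgeR's TMM factors. Hepatocyte nuclei numbered 811 to 2559 per Liver sample, 675 to 2585 per Cell Suspension sample and 1631 to 2151 per Primary Hepatocytes sample, with 2065229 to 29018248 UMIs per sample. A list of 10 hepatocyte markers had a summed level of 11806 to 16065 CPM in Liver, 15330 to 19670 CPM in Cell Suspension and 2997 to 7373 CPM in Primary Hepatocytes, with no marker at 0. In endothelial nuclei the same list stood at 2180 to 4357 CPM in Liver and 1469 to 4929 CPM in Primary Hepatocytes, so that it set hepatocytes apart in Liver and overlapped in culture. In culture all 10 of these markers were lower in hepatocyte nuclei than in Liver. A list of stellate cell markers reached 28.4 to 59.6 CPM in hepatocyte nuclei of Liver and 84.4 to 656 CPM in those of Primary Hepatocytes, and the endothelial list 34.0 to 54.2 CPM and 109 to 168 CPM. By single genes, 2 of 10 stellate markers were higher in Primary Hepatocytes and 1 lower (median log2 -0.30), 4 of 10 endothelial markers higher and 3 lower (median 0.19), and 4 of 7 biliary markers higher and 2 lower (median 0.95). The mitochondrial share of UMIs in hepatocyte nuclei was 0.0973% to 0.186% in Liver, 0.123% to 0.311% in Cell Suspension and 0.208% to 0.369% in Primary Hepatocytes. The part of these shifts in the results was not tested. The 24 samples were sequenced in 6 pools of 4, and only pools 2 and 5 held both Liver and Primary Hepatocytes samples, so that pool and sample type are largely confounded. In all, 337 of 53128 barcodes occurred in more than 1 pool.

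EGF family ligands are made as membrane-bound precursors that proteases release at the cell surface. They bind receptors of the ERBB family, which pair with each other, add phosphate groups to their own tails and start the RAS-ERK cascade. EGFR binds amphiregulin (Areg), heparin-binding EGF (Hbegf) and TGF-alpha (Tgfa). ERBB3 binds neuregulins and signals mainly through its partners, ERBB2 has no known ligand of its own, and neuregulin 4 (Nrg4) acts through ERBB4. ERRFI1, also called MIG6, is a feedback inhibitor that binds active ERBB receptors. MET is the receptor for hepatocyte growth factor (Hgf), which stellate cells of the liver secrete. Both systems are known for driving hepatocyte division after loss of liver tissue.

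In GRCm38, Egfr (ENSMUSG00000020122) lies on chr11:16752203-16918158 on the plus strand, and the antisense gene Egfros lies wholly inside it. Errfi1 (chr4:150853919-150868892, plus strand) shares 1031 bases with the antisense gene 1700045H11Rik, and Nrg4 (chr9:55220222-55326844, minus strand) shares 4212 bases with Fbxo22 on the opposite strand. Erbb2 (chr11:98412470-98437716, plus strand) overlaps Mien1 by 9 bases. Whether the counting used strand is not given in the sources used here, so the split of reads between these genes and their partners is uncertain, and the partners' values are given beside Egfr and Nrg4. The other genes are Erbb3 (chr10:128567523-128589652, minus strand), Areg (chr5:91139599-91148432, plus strand), Hbegf (chr18:36504927-36515805, minus strand), Tgfa (chr6:86195223-86275719, plus strand), Met (chr6:17463800-17573980, plus strand) and Hgf (chr5:16553495-16620152, plus strand). All 10 are protein-coding, and UMIs were counted over exons and introns alike.

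Upstream sequences are shown for Areg and Errfi1, which moved in opposite directions in culture and carry the same motif at a similar place, and for the ligands Tgfa and Nrg4, which rose with Areg. None is shown for Hbegf. The sequences are those of RefSeq for GRCm38.p6, read 5′ to 3′ on the gene's strand and ending 1 base before the transcript start. Capitals mark the cyclic AMP response element TGACGTCA (CRE) and the TATA box core TATAAA. The motifs were searched on both strands, as was the AP-1 site TGANTCA, which had no match in the sequences printed.

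Areg, chr5:91139349-91139598, plus strand: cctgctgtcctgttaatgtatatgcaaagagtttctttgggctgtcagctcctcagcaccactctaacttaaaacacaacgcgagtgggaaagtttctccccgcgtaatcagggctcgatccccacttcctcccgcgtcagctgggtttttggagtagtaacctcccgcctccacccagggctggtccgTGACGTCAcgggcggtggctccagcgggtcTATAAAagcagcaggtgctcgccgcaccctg
Errfi1, 1 of its 2 listed starts, chr4:150854950-150855069, plus strand: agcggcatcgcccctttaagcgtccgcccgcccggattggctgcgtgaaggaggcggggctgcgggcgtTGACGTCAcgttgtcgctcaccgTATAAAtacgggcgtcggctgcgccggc
Tgfa, chr6:86194972-86195221, plus strand: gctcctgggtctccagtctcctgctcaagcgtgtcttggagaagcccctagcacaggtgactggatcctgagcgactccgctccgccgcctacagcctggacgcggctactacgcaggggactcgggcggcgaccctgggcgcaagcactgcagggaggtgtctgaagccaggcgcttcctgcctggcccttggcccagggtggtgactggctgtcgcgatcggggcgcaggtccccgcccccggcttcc
Nrg4, start inside the annotated gene, chr9:55283626-55283875, minus strand: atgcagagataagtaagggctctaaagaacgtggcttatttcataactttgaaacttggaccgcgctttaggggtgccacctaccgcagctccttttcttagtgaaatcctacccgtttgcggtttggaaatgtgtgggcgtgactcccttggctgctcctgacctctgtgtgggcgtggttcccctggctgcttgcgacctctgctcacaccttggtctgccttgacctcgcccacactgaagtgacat

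For Nrg4 and for the Errfi1 start shown, RefSeq's start lies inside the span given above, because GENCODE also lists transcripts that begin farther upstream. The CRE begins 61 bases upstream of the start in Areg and 51 bases upstream in Errfi1, and TATAAA begins 31 and 28 bases upstream. The pair was chosen because it shares the CRE. The window of the other listed Errfi1 start (chr4:150853546-150853795), ahead of the annotated span, holds none of the 3 motifs. Among the windows of members not printed, that of Met holds an AP-1 site 54 bases upstream and those of Hgf, Egfr and Erbb2 hold none of the 3. The sequences of Tgfa and Nrg4 hold none of the 3 motifs, which says only that these letters are not in these windows. Of 32851 RefSeq windows of 250 bases, 1.55% hold the CRE, 6.75% the AP-1 site and 12.4% TATAAA.

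The 4 ligands were higher in culture than in the tissue. In hepatocyte nuclei, Areg, Hbegf, Tgfa and Nrg4 were higher in Primary Hepatocytes than in Liver, while Egfr, Erbb3, Errfi1 and Met were lower, and Erbb2 and Hgf did not pass the test. Among 26521 genes tested, 54.1% passed in this comparison, 27.4% higher and 26.7% lower, beside 8 of 10 members. With the stricter expression filter filterByExpr, 71.5% of 17120 genes passed, beside 8 of 9 members. Gene tests are quasi-likelihood tests in edgeR with 8 samples per group, and p-values were adjusted by Benjamini and Hochberg's method over all genes tested, with a threshold of 0.05. The samples of Liver and Primary Hepatocytes did not overlap for Areg, Hbegf, Tgfa, Nrg4, Errfi1 and Met, where 30.7% of all genes did not overlap.

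**Figure D1:**
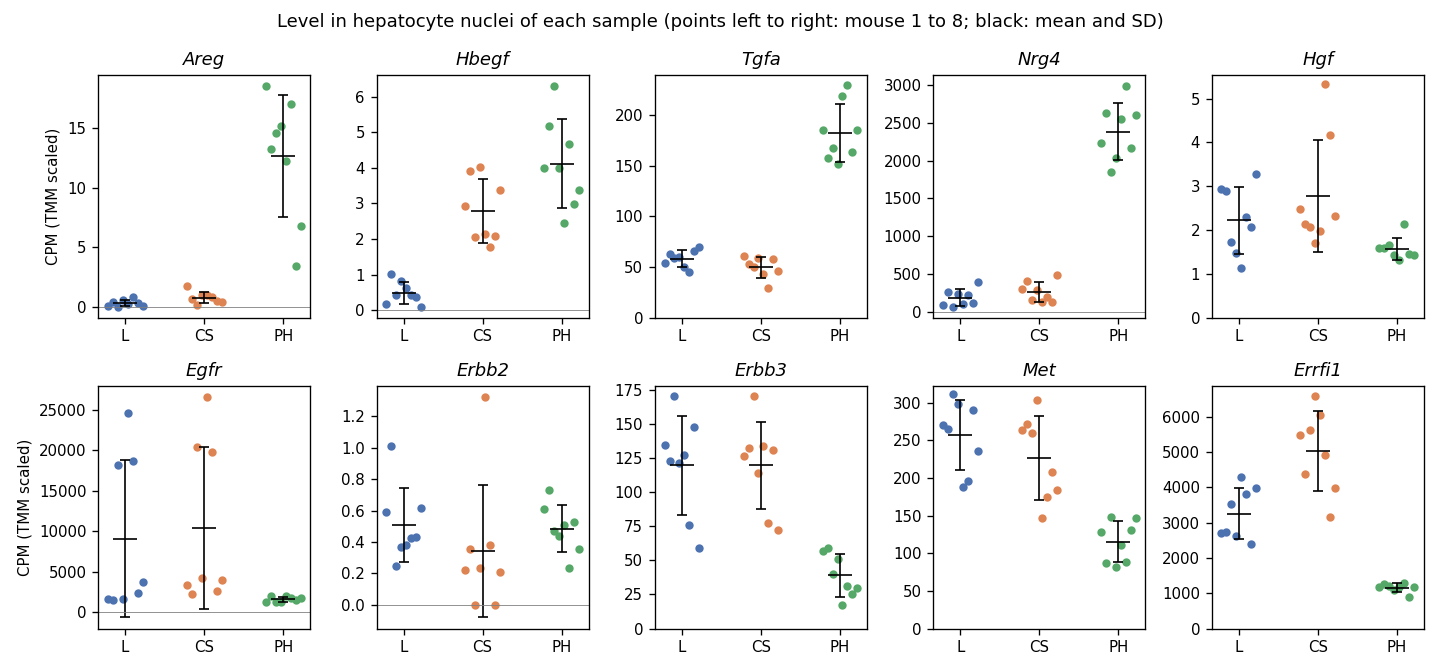
Level of each member in hepatocyte nuclei (TMM-scaled CPM, linear axes from 0), with 1 point per sample ordered left to right from mouse 1 to mouse 8 within Liver (L), Cell Suspension (CS) and Primary Hepatocytes (PH), and the mean and SD in black. Areg, Tgfa and Nrg4 lie higher in PH than in every L and CS sample, Errfi1 lies lower, and Egfr in L and CS splits into 3 samples of 18175 CPM or more and 5 of 4196 CPM or less.

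Areg was nearly absent from hepatocyte nuclei before culture. Its lowest, median and highest levels were 0.0492, 0.311 and 0.845 CPM in Liver, 0.159, 0.800 and 1.80 CPM in Cell Suspension and 3.45, 13.9 and 18.5 CPM in Primary Hepatocytes. These levels rest on 42, 50 and 1881 UMIs. Every Primary Hepatocytes sample lay above every Liver and Cell Suspension sample, while Liver and Cell Suspension overlapped. Areg was 36.5-fold higher in Primary Hepatocytes than in Liver (log2 5.19 ± 0.38 SE, adjusted p = 4.7e-13), and the ratio within a mouse ran from 10.6 to 296, above 1 in 8 of 8 mice. The difference between Cell Suspension and Liver, 1.39 ± 0.51 on the log2 scale (adjusted p = 0.0495), was carried by few UMIs and held under 8 of 21 alternatives only.

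Hbegf, a ligand of EGFR, was higher than in Liver both after isolation and in culture. In Liver its lowest, median and highest levels were 0.103, 0.433 and 1.01 CPM, in Cell Suspension 1.78, 2.54 and 4.03 CPM and in Primary Hepatocytes 2.45, 4.0 and 6.30 CPM, from 60, 160 and 579 UMIs. Both later stages lay wholly above Liver and overlapped each other. Hbegf was the only member without overlap between Cell Suspension and Liver, as were 5.49% of all genes. It rose 5.87-fold from Liver to Cell Suspension (log2 2.55 ± 0.30, adjusted p = 1.2e-07) and was 8.41-fold higher in Primary Hepatocytes than in Liver (log2 3.07 ± 0.27, adjusted p = 3.9e-11). The further difference between Primary Hepatocytes and Cell Suspension was 0.52 ± 0.24 (adjusted p = 0.074), and 0.56 with adjusted p = 0.041 when the mouse was a block in the fit. It also passed with spliced UMIs alone (1.29, adjusted p = 3.3e-05), with DESeq2 (0.54, adjusted p = 0.049) and without mouse 4 (0.69, adjusted p = 0.029). Under the other alternatives it did not pass. Free Hbegf RNA, at 0 to 6.13 CPM in the 6 pools on 0 to 5 UMIs each, was of the same order as the hepatocyte levels, and its part in the change was not tested.

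Nrg4, the ligand of ERBB4, rose in culture. The lowest, median and highest Liver samples held 65.6, 164 and 387 CPM, Cell Suspension 122, 246 and 484 CPM and Primary Hepatocytes 1852, 2388 and 2991 CPM. No cultured sample came near the others. Nrg4 was 13.1-fold higher in Primary Hepatocytes than in Liver (log2 3.71 ± 0.34, adjusted p = 8.3e-11) and 9.13-fold higher than in Cell Suspension (log2 3.19 ± 0.33, adjusted p = 1.4e-09). Fbxo22, which encodes a subunit of a ubiquitin ligase and overlaps Nrg4 on the opposite strand, went from 51.5 to 71.5 CPM in Liver to 447 to 779 CPM in Primary Hepatocytes (log2 3.26 ± 0.15, adjusted p = 8.1e-18), so the overlap leaves the exact split between these genes uncertain. From Liver to Cell Suspension Nrg4 did not pass the test (0.52 ± 0.31, adjusted p = 0.26), and with the mouse as a block it did (0.59, adjusted p = 0.0497). The Cell Suspension samples of mice 1, 2 and 3 were in pools 3 and 4, which also held cultured samples. Free Nrg4 RNA there was at 1947 and 1655 CPM, against 126 and 147 CPM in pools 1 and 6. Its part in this difference was not tested.

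Tgfa, a ligand of EGFR, ranged from 45.3 to 69.6 CPM in Liver (median 59.2), from 29.1 to 61.0 CPM in Cell Suspension (median 51.3) and from 151 to 229 CPM in Primary Hepatocytes (median 176). The cultured samples again stood wholly apart, and Liver and Cell Suspension overlapped. Tgfa was 3.13-fold higher in Primary Hepatocytes than in Liver (log2 1.64 ± 0.13, adjusted p = 4.0e-12), with ratios of 2.49 to 5.06 within mice. The change from Liver to Cell Suspension was -0.23 ± 0.13 (adjusted p = 0.24).

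The share of hepatocyte nuclei in which these ligands were seen followed their levels. With every nucleus thinned to 1000 UMIs (508 Liver, 474 Cell Suspension and 83 Primary Hepatocytes nuclei below that number left out), Nrg4 was seen in 14.2% ± 7.3 of nuclei in Liver and 76.2% ± 1.7 in Primary Hepatocytes (SD, n = 8). Without thinning the shares were 50.9% and 93.5%. Kupffer cells, the macrophages of the liver, were taken for comparison, and Nrg4 was seen in 4.71% of their thinned Liver nuclei, with median depths of 3025 UMIs in Kupffer and 8022 UMIs in hepatocyte nuclei. In Primary Hepatocytes Nrg4 was seen in 36.4% of thinned Kupffer nuclei, from 2 samples, and in 36.3% of endothelial nuclei, so the share in these other cell types was also higher in culture. Areg was seen in 0.0443% of thinned hepatocyte nuclei in Liver and in 1.46% ± 0.74 in Primary Hepatocytes, against 0.398% of endothelial nuclei in Primary Hepatocytes. Unthinned, Areg was seen in 0.268% and 6.76% of hepatocyte nuclei. Tgfa went from 4.75% to 18.6% on the thinned scale, against 0.525% of Kupffer nuclei in Liver. Endothelial nuclei with Tgfa went from 3.10% to 12.4%, while free Tgfa RNA went from 52.9 and 73.7 CPM in the pools without cultured samples to 184 and 142 CPM in those without Liver samples, so these shares cannot be told apart from background.

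Among the receptors, Egfr fell in culture to a narrow range after a wide spread in the tissue. From mouse 1 to mouse 8 the Liver samples held 1662, 1525, 18175, 1653, 24643, 18741, 2323 and 3718 CPM. The Cell Suspension samples of the same mice held 3354, 2305, 20377, 4196, 26634, 19761, 2563 and 4027 CPM, and the Primary Hepatocytes samples 1251, 2011, 1284, 1314, 1952, 1762, 1500 and 1797 CPM. Mice 3, 5 and 6 stood far above the other 5 in both Liver and Cell Suspension, and in culture all 8 lay together. The mean was 5.63-fold lower in Primary Hepatocytes than in Liver (log2 -2.49 ± 0.60, adjusted p = 7.0e-04) and 6.47-fold lower than in Cell Suspension (log2 -2.69 ± 0.61, adjusted p = 3.6e-04). These means were set largely by mice 3, 5 and 6: within mice the ratio of Primary Hepatocytes to Liver ran from 0.0707 to 1.32, was above 1 in 1 of 8 mice, and the ranges of both sample types overlapped. With the mouse as a block the change from Liver was -1.39 (adjusted p = 0.0028). In its clustering of nuclei by expression, the study reports grouping by mouse for part of the Liver and Cell Suspension nuclei. It names mice 3, 5 and 6 in particular, and saw no such grouping in culture.

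The genes whose log2 levels followed Egfr most closely over the 48 sums of hepatocyte and endothelial nuclei were its antisense gene Egfros (Pearson r = 0.966), the growth factor gene Igf1 (r = 0.922) and Rapgef4, an exchange factor for RAP proteins (r = 0.899), among 9282 genes of at least 10 CPM. The correlations are descriptive, since the sums share mice and libraries. Egfros ran from 51.3 to 816 CPM in Liver and from 45.1 to 71.2 CPM in Primary Hepatocytes. In hepatocyte nuclei of Liver, Igf1 was at 285, 222, 1726, 243, 3276, 2299, 511 and 256 CPM in mice 1 to 8, so its 3 highest samples were those with the highest Egfr. In Primary Hepatocytes it was at 75.4 to 278 CPM.

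**Figure D2:**
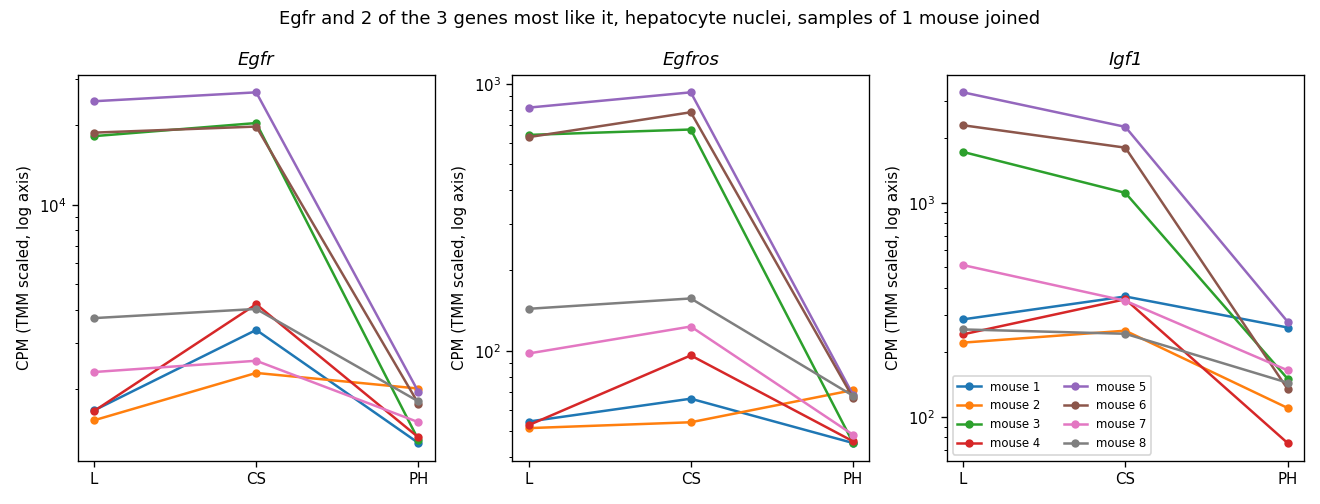
Egfr, Egfros and Igf1 in hepatocyte nuclei (TMM-scaled CPM, log axis), with 1 line per mouse across Liver (L), Cell Suspension (CS) and Primary Hepatocytes (PH). The lines of mice 3, 5 and 6 run above the other 5 in L and CS, and for Egfr all 8 mice lie between 1251 and 2011 CPM in PH.

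Erbb3, a receptor that needs a partner to signal, was at 58.8 to 170 CPM in Liver (median 125), 71.8 to 170 CPM in Cell Suspension (median 128) and 17.4 to 59.2 CPM in Primary Hepatocytes (median 35.7). It was lower in culture in 8 of 8 mice, and 7 cultured samples lay below every Liver sample. The fall from Liver was 3.08-fold (log2 -1.62 ± 0.23, adjusted p = 4.4e-07), and that from Cell Suspension was of the same size (log2 -1.62 ± 0.23, adjusted p = 5.2e-07). Erbb2 was hardly detected in hepatocyte nuclei, at 0.246 to 1.01 CPM in Liver, 0 to 1.32 CPM in Cell Suspension and 0.236 to 0.729 CPM in Primary Hepatocytes. The groups overlapped, and no difference was detectable at this depth (log2 0.06 ± 0.33 for Primary Hepatocytes against Liver, adjusted p = 0.90).

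Met, the HGF receptor, was at 188 to 311 CPM in Liver (median 268), 147 to 304 CPM in Cell Suspension (median 234) and 81.8 to 149 CPM in Primary Hepatocytes (median 120). The cultured samples lay below all Liver samples and reached the lowest Cell Suspension sample. Met fell 2.23-fold from Liver (log2 -1.16 ± 0.16, adjusted p = 2.7e-07), in 8 of 8 mice. Larp1b, Cdh2 and Pard3 had the patterns most like that of Met, with r of 0.953, 0.950 and 0.939 over the same 48 sums, which span both cell types. Hgf itself was at or below 5.33 CPM in hepatocyte nuclei of every sample. Its values were 1.15 to 3.28 CPM in Liver, 1.71 to 5.33 CPM in Cell Suspension and 1.31 to 2.13 CPM in Primary Hepatocytes, and it passed the test only between Primary Hepatocytes and Cell Suspension (log2 -0.77 ± 0.24, adjusted p = 0.0078), a call that was lost with samples thinned to the lowest total (-0.32, adjusted p = 0.57) and with spliced UMIs alone (-1.02, adjusted p = 0.13).

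Errfi1, the feedback inhibitor of these receptors, rose on isolation and fell in culture. Liver samples held 2395, 3134 and 4288 CPM (lowest, median and highest), Cell Suspension samples 3167, 5202 and 6595 CPM and Primary Hepatocytes samples 904, 1175 and 1302 CPM. All cultured samples lay below all others, while Liver and Cell Suspension overlapped. The rise from Liver to Cell Suspension was 1.54-fold (log2 0.63 ± 0.16, adjusted p = 0.0032), with a ratio above 1 in 8 of 8 mice. The fall was 2.81-fold from Liver (log2 -1.49 ± 0.16, adjusted p = 1.6e-09) and 4.34-fold from Cell Suspension (log2 -2.12 ± 0.16, adjusted p = 1.6e-12). Its antisense partner 1700045H11Rik moved the other way in culture, with a log2 change of 1.55 ± 0.22 from Liver (adjusted p = 4.2e-07).

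Between Primary Hepatocytes and Cell Suspension 8 of 10 members passed (3 higher, 5 lower), where 51.6% of all genes did, 27.6% higher and 24% lower. Their samples did not overlap for Areg, Tgfa, Nrg4, Egfr, Erbb3 and Errfi1, nor did those of 27.3% of all genes. Between Cell Suspension and Liver 3 passed, all higher (Hbegf, Errfi1 and Areg), where 21.5% of genes passed, 7.69% higher and 13.8% lower. The comparisons share sample groups and are not independent of each other. Within the only pools that held both sample types, the directions of the called members were the same. In pool 2 the Liver and Primary Hepatocytes samples of mouse 4 held 0.592 and 15.2 CPM of Areg, 234 and 2032 CPM of Nrg4, 2611 and 1082 CPM of Errfi1, 298 and 81.8 CPM of Met, and 1653 and 1314 CPM of Egfr. In pool 5 the Liver sample of mouse 5 held 0.297 CPM of Areg, against 14.6 and 6.78 CPM in the Primary Hepatocytes samples of mice 3 and 8, and 95.9 CPM of Nrg4, against 1852 and 2607 CPM.

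**Figure D3:**
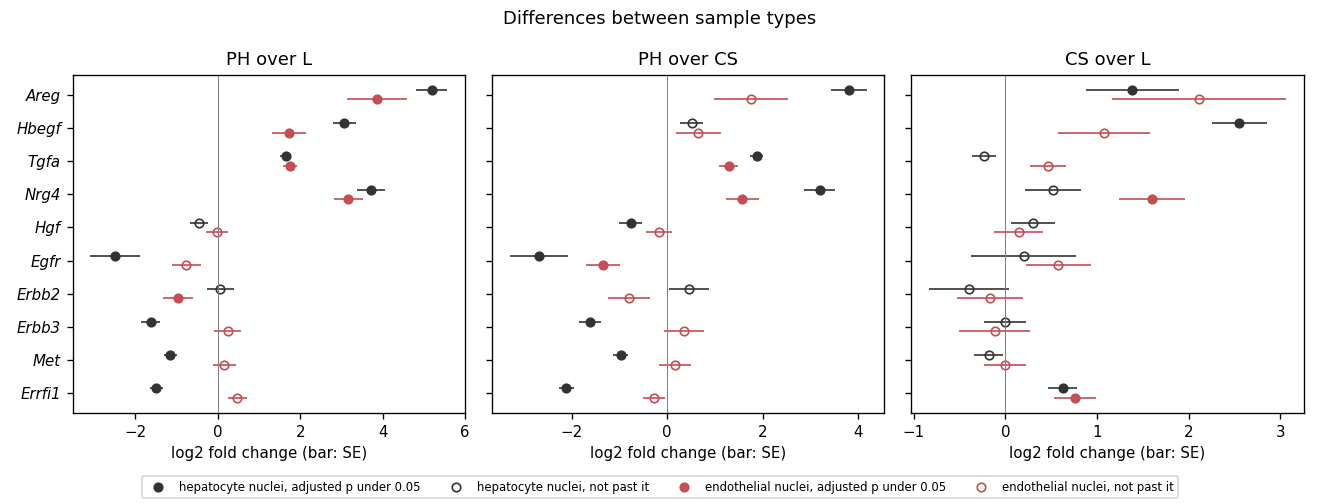
Log2 fold change with its SE for each member in hepatocyte nuclei (black) and endothelial nuclei (red) for the 3 comparisons of sample types, with filled points where the adjusted p is under 0.05. In Primary Hepatocytes against Liver the 4 ligands lie to the right of 0 in both cell types (Areg in endothelial nuclei on 16 UMIs against 1), whereas Errfi1, Met and Erbb3 lie to the left in hepatocyte nuclei only.

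Cultured hepatocyte nuclei fell mainly into 4 of the authors' clusters, and the members differed between them. Nrg4 was at 4349 ± 594 CPM in cluster 1 and at 2411 ± 281, 2653 ± 704 and 1775 ± 358 CPM in clusters 0, 14 and 17 (mean and SD over Primary Hepatocytes samples, not TMM-scaled). Met was at 200 ± 27.4 CPM in cluster 0 and at 107 ± 29.8, 121 ± 37.8 and 107 ± 36.5 CPM in clusters 1, 14 and 17. Areg had means of 18, 15.3, 16.3 and 13.0 CPM in clusters 0, 1, 14 and 17, a narrow range beside that of Nrg4. These values are descriptive, because the clusters were made from the same expression data.

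Endothelial cells line the liver's sinusoids, and their nuclei were present in all samples (29 to 560 per sample) and were tested in the same way. Areg reached the count filter there through its 16 UMIs in Primary Hepatocytes, with 1 in Liver and 3 in Cell Suspension, so its test is given no weight. Of the other 9 members, 4 passed in Primary Hepatocytes against Liver, Nrg4, Tgfa and Hbegf higher and Erbb2 lower, where 33.8% of 18279 genes passed, 15.4% higher and 18.4% lower. Nrg4 was at 17.2 to 168 CPM in Liver (median 40.6) and 319 to 767 CPM in Primary Hepatocytes (median 713), without overlap (log2 3.17 ± 0.36, adjusted p = 1.1e-09). Tgfa went from 26.4 to 45.3 CPM in Liver to 62.7 to 168 CPM (log2 1.76 ± 0.17, adjusted p = 4.5e-11). Hbegf was at 1.33 to 12.4 CPM and 0 to 45.6 CPM (log2 1.72 ± 0.42, adjusted p = 0.0011), a call lost without mouse 6 (1.09, adjusted p = 0.058). Erbb2 was at 5.43 to 27.7 CPM and 0 to 15.7 CPM (log2 -0.97 ± 0.36, adjusted p = 0.035), a call that held under 5 of 13 alternatives.

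Free RNA in the droplets can enter these endothelial values. In barcodes of at most 100 UMIs, Nrg4 made up 126 and 147 CPM in pools 1 and 6, which held no cultured samples, 348 and 911 CPM in pools 2 and 5, and 1947 and 1655 CPM in pools 3 and 4, which held no Liver samples. Free Tgfa RNA moved the same way, with 52.9 and 73.7 CPM in pools 1 and 6, 55.5 and 96.9 CPM in pools 2 and 5, and 184 and 142 CPM in pools 3 and 4. These values are near or above the endothelial levels of Tgfa in Liver and in Primary Hepatocytes alike. After thinning, Nrg4 was seen in 36.3% of endothelial and 36.4% of Kupffer nuclei in Primary Hepatocytes, the latter from 2 samples. With the pool as a covariate the endothelial call of Hbegf was lost (adjusted p = 0.16). The part of free RNA in the endothelial changes of Nrg4 and Tgfa was not tested.

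From Liver to Primary Hepatocytes, Errfi1, Met, Erbb3 and Egfr did not pass the test in endothelial nuclei. Errfi1 was at 378 to 789 CPM in Liver, 354 to 1621 CPM in Cell Suspension and 394 to 986 CPM in Primary Hepatocytes, with a change of 0.48 ± 0.23 from Liver to Primary Hepatocytes (adjusted p = 0.10). It passed, higher, with RLE normalization in place of TMM (0.65, adjusted p = 0.032), with filterByExpr (0.66, adjusted p = 0.036) and without mouse 8 (0.64, adjusted p = 0.038). The difference between the endothelial and the hepatocyte change was itself tested in 1 fit over both cell types, in which 25.8% of genes passed for Primary Hepatocytes against Liver, 14.5% higher and 11.3% lower in endothelial nuclei. It was 1.97 ± 0.19 for Errfi1 (adjusted p = 1.3e-16), 2.05 ± 0.33 for Erbb3 (adjusted p = 1.4e-07), 1.34 ± 0.26 for Met (adjusted p = 1.0e-05), 0.87 ± 0.26 for Egfr (adjusted p = 0.0050) and -1.40 ± 0.47 for Hbegf (adjusted p = 0.016). In the other comparisons 5 members passed against Cell Suspension, where 20% of genes did, 13.3% higher and 6.71% lower, and between Cell Suspension and Liver Nrg4 passed alone (1.01 ± 0.27, adjusted p = 0.018), where 2.80% of genes did, 0.608% higher and 2.2% lower. Egfr in endothelial nuclei was -0.77 ± 0.35 (adjusted p = 0.090), and -0.78 with adjusted p = 0.011 when the mouse was a block. It also passed with no filter beyond 1 count (-0.75, adjusted p = 0.021) and without mouse 4 (-0.96, adjusted p = 0.046). Free Egfr RNA stood at 2435 to 7285 CPM in the pools, above the 632 to 1902 CPM of endothelial nuclei in Liver, and free Errfi1 RNA at 1789 to 2715 CPM was likewise above the 378 to 789 CPM of Errfi1 there. Free Met RNA stood at 147 to 233 CPM and free Erbb3 RNA at 57.2 to 124 CPM. Endothelial levels of these 4 genes, and with them the differences between the cell types' changes, cannot be told apart from background here.

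Between Cell Suspension and Liver 2 members passed in endothelial nuclei, Nrg4 (1.60 ± 0.36, adjusted p = 0.0041) and Errfi1 (0.76 ± 0.23, adjusted p = 0.048), both higher, where 3.90% of genes passed, 2.03% higher and 1.87% lower. The Nrg4 call was lost with the pool as a covariate (0.62, adjusted p = 0.32). Between Primary Hepatocytes and Cell Suspension 3 members passed, Tgfa and Nrg4 higher and Egfr lower, where 20% of genes passed, 9.33% higher and 10.7% lower. The Egfr call was lost without mouse 5 (-1.04, adjusted p = 0.0505).

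In Liver the members divided by cell type, with the hepatocyte receptors on one side and Hgf and Erbb2 on the other. Stellate cells, the fat-storing pericytes of the liver, held Hgf at 1573 ± 208 CPM, endothelial nuclei at 195 ± 90.1 CPM, Kupffer nuclei at 85.0 ± 21.8 CPM and hepatocyte nuclei at 2.07 ± 0.78 CPM (SD, n = 8 samples, not TMM-scaled). Of these 4 types, stellate nuclei lay above and hepatocyte nuclei below all others, while the endothelial and Kupffer ranges met at 112 and 127 CPM. Free Hgf RNA was at 20.5 to 93.6 CPM in the 4 pools with Liver samples, which reaches the Kupffer mean, and Liver leukocytes held 8.13 ± 10.8 CPM. The part of background in the Kupffer value was not tested. Against hepatocyte nuclei Hgf was higher by 9.24 ± 0.20, 6.22 ± 0.19 and 4.77 ± 0.21 on the log2 scale (edgeR with the mouse as a block). With 4.39% of Liver nuclei and a mean 2.22% of Liver UMIs, stellate cells held a mean 71.0% of the Hgf UMIs, endothelial cells 21.4% and hepatocytes 4.11%.

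Erbb2, which is dimly read in hepatocytes, was at 17.5 ± 6.7 CPM in endothelial and 12.5 ± 5.8 CPM in stellate nuclei, against 0.475 ± 0.25 CPM in hepatocyte nuclei. The endothelial level was 29.0-fold that of hepatocyte nuclei (log2 4.86 ± 0.28), and endothelial and stellate levels did not differ beyond their spread. Endothelial nuclei held 50.5% ± 12.2 of all Erbb2 UMIs of a Liver sample. Hbegf was also higher in endothelial than in hepatocyte nuclei (log2 3.06 ± 0.42).

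Egfr, Met, Erbb3 and Errfi1 were hepatocyte genes in these samples, with 95.5%, 97.0%, 97.5% and 97.7% of their UMIs in hepatocyte nuclei, which made up 74.9% of nuclei and held a mean 88.7% of all UMIs of a Liver sample. In endothelial against hepatocyte nuclei the log2 difference was -3.08 for Met, -3.28 for Erbb3, -3.00 for Errfi1, -2.55 for Egfr, -1.85 for Nrg4 and -0.90 for Tgfa, and all 6 passed. In all, 9 members passed between endothelial and hepatocyte nuclei, 3 higher and 6 lower, where 48.2% of genes passed, 20.7% higher and 27.5% lower. Between stellate and hepatocyte nuclei 8 passed, 2 higher and 6 lower, where 42.3% of genes did, 16.1% higher and 26.2% lower. Between Kupffer and hepatocyte nuclei 8 passed, again 2 higher and 6 lower, where 43.7% of genes did, 16.1% higher and 27.6% lower. Met had its highest mean outside hepatocytes in a small mesothelial-like group, at 376 ± 87.6 CPM over 4 Liver samples, against 236 ± 47.5 CPM in hepatocyte nuclei.

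**Figure D4:**
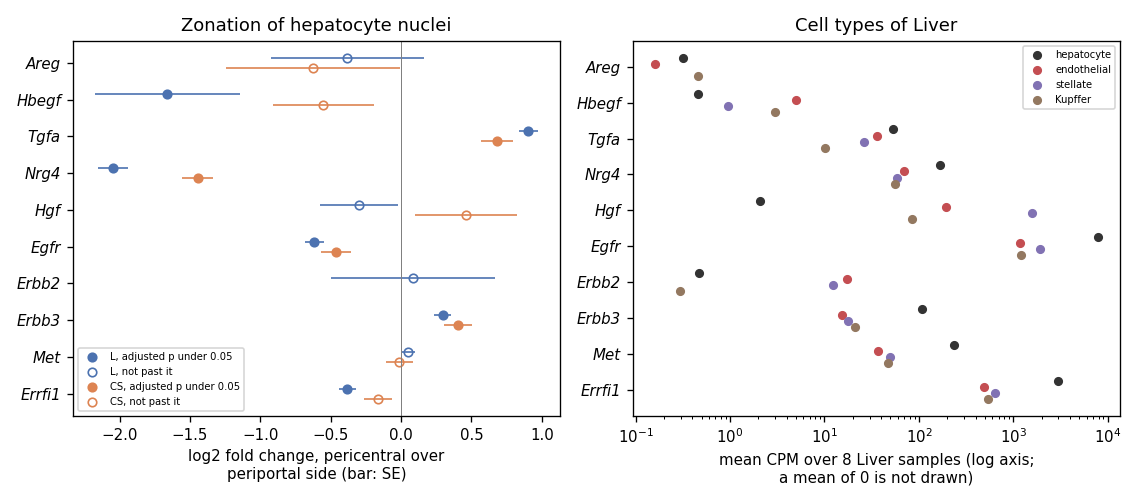
Left, log2 fold change with its SE between pericentral-side and periportal-side hepatocyte nuclei of Liver (L) and Cell Suspension (CS), and right, mean CPM over 8 Liver samples in hepatocyte, endothelial, stellate and Kupffer nuclei on a log axis. Nrg4 lies farthest to the periportal side and Tgfa to the pericentral side, and Hgf is highest in stellate nuclei.

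Stellate cells were few after isolation (0.983% of Cell Suspension and 1.04% of Primary Hepatocytes nuclei), and Hgf fell in the sums over all nuclei. It was at 28.3 to 99.3 CPM in Liver and 3.31 to 14.7 CPM in Primary Hepatocytes, without overlap, 6.20-fold lower (log2 -2.63 ± 0.35, adjusted p = 2.2e-07). In these sums all 10 members passed, 4 higher and 6 lower, where 55.7% of genes passed, 28.6% higher and 27.1% lower. Between Cell Suspension and Liver 3 members passed in these sums, Errfi1, Areg and Hbegf, all higher, where 20.6% of genes passed, 8.01% higher and 12.6% lower. With the mouse as a block 5 passed, with Nrg4 higher (0.75, adjusted p = 0.023) and Hgf lower (-0.95, adjusted p = 0.027) added. The part of free RNA in this Nrg4 difference was not tested. Sums over all nuclei do not separate fewer cells of a type from less RNA per cell. Nuclei named stellate also held less Hgf in culture, 285 ± 168 CPM in Primary Hepatocytes against 1573 ± 208 CPM in Liver. After thinning, Hgf was seen in 20.9% against 71.8% of them. These nuclei came mostly from different author clusters, with 175 Primary Hepatocytes nuclei in cluster 27 and 878 Liver nuclei in cluster 20. The stellate marker list stood at 3665 CPM in cluster 27 and 12976 CPM in cluster 20, and the endothelial list at 933 and 350 CPM. Whether the same cells held less Hgf was not tested. Cell Suspension stellate nuclei held 1728 ± 657 CPM over 7 samples. No test was made of these stellate values, which rest on 10 to 54 nuclei per Primary Hepatocytes sample.

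The liver lobule runs from the portal tract to the central vein, and hepatocytes along it differ in the genes they use. Hepatocyte nuclei of each Liver and Cell Suspension sample were ranked by the share of pericentral UMIs among those of a list of zonation genes, and equal numbers of nuclei from the pericentral and the periportal end of that order (220 to 852 per sample and end) were compared with the mouse as a block. Primary Hepatocytes were not split, since the zonation genes had mostly fallen there (10 of 10 pericentral and 8 of 10 periportal genes lower than in Liver). In Liver 6 of 10 members passed, 2 higher on the pericentral side and 4 lower, where 21.1% of genes passed, 10.6% higher and 10.5% lower. In Cell Suspension 4 of 9 passed, 2 in each direction, where 16.7% of genes passed, 8.58% higher and 8.08% lower.

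Nrg4 was a periportal gene. At the pericentral end of the Liver samples it was at 27.5, 62.6 and 89.2 CPM (lowest, median and highest) and at the periportal end at 101, 243 and 644 CPM. The pericentral level was the lower in 8 of 8 mice (log2 -2.04 ± 0.11, adjusted p = 1.9e-14), and again in 8 of 8 Cell Suspension samples (log2 -1.45 ± 0.11, adjusted p = 4.6e-22). Tgfa ran the other way, at 53.2 to 87.3 CPM at the pericentral and 28.9 to 44.5 CPM at the periportal end in Liver, without overlap (log2 0.90 ± 0.07, adjusted p = 4.3e-11), and was higher on the pericentral side in 8 of 8 Cell Suspension samples as well (log2 0.68 ± 0.11, adjusted p = 3.1e-07).

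Egfr was lower on the pericentral side, with a log2 difference of -0.62 ± 0.07 in Liver (adjusted p = 3.2e-08) and -0.46 ± 0.10 in Cell Suspension (adjusted p = 3.2e-04), in 8 of 8 mice each time. Erbb3 was higher there, by 0.29 ± 0.06 (adjusted p = 7.0e-04) and 0.40 ± 0.10 (adjusted p = 9.7e-04). Errfi1 was lower on the pericentral side in Liver (log2 -0.38 ± 0.06, adjusted p = 2.3e-05) and did not pass in Cell Suspension (adjusted p = 0.33). Hbegf passed in Liver (log2 -1.66 ± 0.52, adjusted p = 0.020) on 11 pericentral and 32 periportal UMIs. Met showed no detectable zonation, with a difference of 0.05 (adjusted p = 0.64). Without the block for the mouse, only Nrg4 and Tgfa passed.

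The share of spliced UMIs among spliced and unspliced UMIs was compared for the 6 members with at least 20 such UMIs in every hepatocyte sum, in 18 two-sided exact permutation tests of 8 samples against 8 (smallest possible p 1.6e-04). It was higher after isolation for Errfi1, Met, Tgfa and Erbb3. Errfi1 was spliced at 7.34% to 9.96% in Liver, 11.5% to 16.6% in Cell Suspension and 11.9% to 18.1% in Primary Hepatocytes. In the same order, Met was spliced at 8.74% ± 0.68, 14.1% ± 2.6 and 13.6% ± 1.2 (mean and SD, n = 8). Neither gene's later samples overlapped Liver (adjusted exact permutation p = 4.7e-04 for each of these comparisons with Liver).

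Tgfa and Erbb3 also had higher spliced shares than in Liver in both later stages, with means of 4.79%, 8.93% and 7.77% for Tgfa and of 38.3%, 51.6% and 46.4% for Erbb3 in Liver, Cell Suspension and Primary Hepatocytes. The Erbb3 call between Primary Hepatocytes and Liver (adjusted exact permutation p = 0.0159) was lost without mouse 8 (7.11 percentage points, adjusted exact permutation p = 0.0548). Nrg4 went the other way, from 5.25% ± 2.49 in Liver to 2.52% ± 0.50 in Primary Hepatocytes (adjusted exact permutation p = 0.0101). Egfr passed in none of the 3 comparisons, with means of 4.90%, 4.75% and 5.89% in Liver, Cell Suspension and Primary Hepatocytes. The Nrg4 call was lost when UMIs of ambiguous state were counted as spliced (adjusted exact permutation p = 0.12). The unspliced share of all UMIs in hepatocyte nuclei also moved, from 72.6% to 77.5% in Liver to 62.5% to 71.9% in Cell Suspension and 61.4% to 66.5% in Primary Hepatocytes, and the part of this in the members' values was not tested.

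The rest of the pathway was read from 7 lists of 95 genes in all, compared between Primary Hepatocytes and Liver in hepatocyte nuclei, where the median log2 change of all genes was 0.04 and 27.4% of all genes rose and 26.7% fell, the background for the counts of each list. Among 8 other EGF family genes, 3 rose and 2 fell (median 0.05). Nrg1, a ligand of ERBB3 and ERBB4, rose from a mean of 13.9 to 211 CPM (log2 3.92 ± 0.14, adjusted p = 4.7e-20), and Btc, a ligand of EGFR and ERBB4, from 7.33 to 27.6 CPM (log2 1.91 ± 0.13). Erbb4, the receptor of Nrg4, fell from 994 to 28.2 CPM (log2 -5.14 ± 0.25, adjusted p = 4.0e-17), and Egf from 10.2 to 4.01 CPM. The third gene that rose was Epgn, on few UMIs.

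Of 9 genes for the release of ligands from the membrane, 5 rose and 2 fell (median 0.71). Rhbdf1 and Rhbdf2, which encode iRhom partners of the protease ADAM17, rose by 2.25 ± 0.20 and 1.91 ± 0.15, while Adam17 itself was at 0.15 ± 0.12 (adjusted p = 0.29). The protease gene Adam8 rose by 1.98 ± 0.26, from a mean of 0.377 to 1.55 CPM, on 49 and 223 UMIs. Of 10 genes for HGF activation and the related receptor, 2 rose and 5 fell (median -0.33). Klkb1 and Hpn, which encode plasma kallikrein and the membrane protease hepsin, fell from 341 to 23.5 CPM (log2 -3.86 ± 0.24) and from 318 to 52.0 CPM (log2 -2.61 ± 0.16). Plat, the tissue plasminogen activator gene, rose by 2.34 ± 0.55 on few UMIs, 22 in Liver and 129 in Primary Hepatocytes. Its ranges overlapped, with 0.0740 to 0.353 CPM in Liver and 0.118 to 3.39 CPM in Primary Hepatocytes.

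Of 18 receptor feedback and endocytosis genes 9 rose and 6 fell (median 0.26), with the CBL-binding adaptor gene Sh3kbp1 at 2.31 ± 0.17, the ubiquitin ligase gene Cblb at 1.77 ± 0.17 and Lrig3, a leucine-rich repeat protein of a family that restrains ERBB receptors, at -2.20 ± 0.12. The 22 adaptors and RAS-ERK relay genes split into 9 that rose and 10 that fell (median -0.08), with the adaptor genes Gab2 at 2.98 ± 0.18 and Grb7 at -2.48 ± 0.17 and the RAS gene Nras at 1.75 ± 0.14. Of 12 ERK feedback genes tested 5 rose and 2 fell (median 0.32). Dusp5, a phosphatase for ERK in the nucleus, rose from 0.375 to 13.2 CPM (log2 5.04 ± 0.24), and Spred3 by 2.43 ± 0.19, whereas Spry4 went from 13.9 CPM in Liver to 34.4 CPM in Cell Suspension and 1.94 CPM in Primary Hepatocytes (log2 -2.82 ± 0.24 against Liver).

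The 15 growth factor response genes moved most as a list, with 12 that rose and 1 that fell (median 3.11). The lists were chosen with earlier results of these data known, so the shift of a list is descriptive. Fosl1, a subunit of AP-1, rose from 0.271 to 45.4 CPM (log2 7.25 ± 0.36, adjusted p = 8.5e-17), Ier3 by 6.01 ± 0.38 and Vgf by 5.48 ± 0.39, and Etv5 fell (log2 -1.06 ± 0.19). The Liver levels of Fosl1, Ier3 and Vgf rested on 37, 64 and 13 UMIs. Between Cell Suspension and Liver, where 7.69% of all genes rose and 13.8% fell, 6 of these genes rose and none fell (median 1.14), as did 6 of the 12 ERK feedback genes (median 0.86). From Cell Suspension to Primary Hepatocytes, 9 growth factor response genes rose and 4 fell (median 2.33). There 3 ERK feedback genes rose and 5 fell (median 0.05), where 27.6% of all genes rose and 24.0% fell. In endothelial nuclei 10 of 14 growth factor response genes rose and 3 fell between Liver and Primary Hepatocytes (median 2.78), where 15.4% of all genes rose and 18.4% fell.

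**Figure D5:**
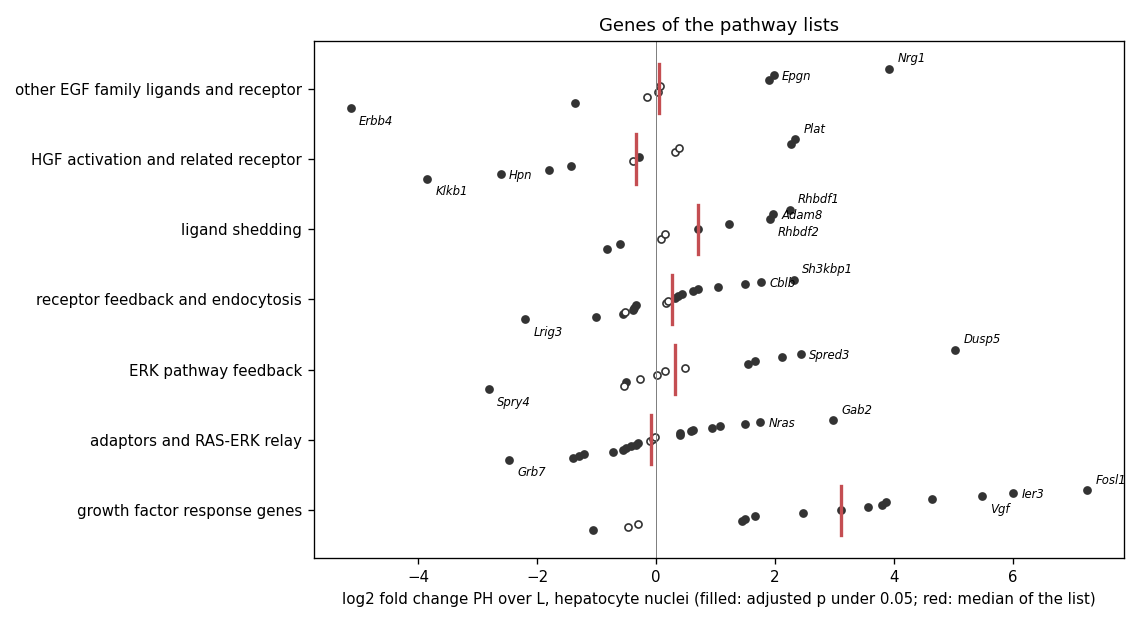
Log2 fold change between Primary Hepatocytes and Liver in hepatocyte nuclei for each gene of the 7 pathway lists, with the median of each list in red. The growth factor response genes have a median of 3.11, and the medians of the other 6 lists lie between -0.33 and 0.71.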

How the data were processed

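Nuclei of 24 samples were hashtagged and mixed in 6 pools of 4. The authors made the pools into 10x 3′ libraries, quantified the reads with Salmon Alevin 1.9.0 and Alevin-fry 0.7.0 (with bcl2fastq 2.19.0 before that, versions from the submitters' processing notes) against a GRCm38 reference of spliced and unspliced transcripts, and deposited raw counts (UMIs) per barcode and gene for spliced, unspliced and ambiguous RNA. Whether counting used strand is not given in the sources used here. Samples, clusters and cell types come from the authors' table of nuclei, in which doublets had been removed with scDblFinder. Its counts per nucleus were used to judge the depth of clusters. Other entries, such as the hashtag fraction, were not analysed here. Hashtag CD2 was taken for Cell Suspension, mouse 2, which otherwise had no hashtag. Deposited hashtag counts were not used for grouping.

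The 3 splicing states were added and UMIs summed per sample and cell type. Clusters that the authors call cultured were named endothelial or stellate by marker lists. The others went to the hepatocytes by default, with no hepatocyte marker required, so differences from the study may come from these rebuilt names. Cluster 8 (2321 nuclei, 166 from Liver and 1450 from Primary Hepatocytes) was the exception. It was left unnamed and out of the hepatocytes for low depth (median 1608 UMIs) and no hepatocyte marker among its leading genes, such as Gm10800. Cluster 19, which the authors call hepatocytes, was kept with mostly the same leading genes. It held 995 Liver and 27 Primary Hepatocytes nuclei (median 1390 UMIs). Genes with at least 10 counts entered edgeR 4.0.16, run in R 4.3.3 (TMM, quasi-likelihood, sample type alone as in the study's design), with limma 3.58.1 loaded by it and DESeq2 1.42.0 as an alternative. Liver cell types and lobule sides were tested with the mouse as a block, on sums of at least 10 nuclei and, for the lobule, on nuclei with at least 5 zonation UMIs. Python 3.11.15 with numpy 2.4.6, scipy 1.17.1, pandas 2.3.3 and matplotlib 3.10.9 did the rest.

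Samples of 1 mouse are paired by their liver. The correlation of deviations from the group means over 8601 genes was 0.327 to 0.841 between Liver and Cell Suspension of the same mouse, -0.0492 to 0.111 between Liver and Primary Hepatocytes and -0.141 to 0.111 between Cell Suspension and Primary Hepatocytes. The members and lists were chosen with earlier results of these data known. The text names all 10 members, the 3 genes of each list with the largest change among those that passed, and the 3 genes most like Egfr and Met. Btc, Egf, Adam17 and Etv5 and the genes that overlap members were added after their values were seen. The fits were tested on simulated counts with 200 changed genes.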

Additional observations from a re-analysis of the deposited data

Results flagged for a closer look

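The change from Liver to Primary Hepatocytes or from Cell Suspension to Primary Hepatocytes differed between endothelial and hepatocyte nuclei for several members, by a test of the difference itself (endothelial minus hepatocyte log2 fold change, edgeR, 1 fit with the sample as a block). In this fit 6922 of 26796 genes passed from Liver to Primary Hepatocytes and 5372 from Cell Suspension to Primary Hepatocytes. Between Cell Suspension and Liver 750 genes passed. Of 30 differences of members tested 11 passed. From Liver, they were 1.97 for Errfi1 (adjusted p = 1.3e-16), 1.34 for Met (adjusted p = 1.0e-05), 2.05 for Erbb3 (adjusted p = 1.4e-07), 0.87 for Egfr (adjusted p = 0.0050) and -1.40 for Hbegf (adjusted p = 0.016). From Cell Suspension, they were 2.12 for Errfi1 (adjusted p = 8.8e-18), 1.28 for Met (adjusted p = 2.8e-04), -1.38 for Nrg4 (adjusted p = 7.7e-06), 2.29 for Erbb3 (adjusted p = 7.8e-07) and 1.34 for Egfr (adjusted p = 7.6e-06). The eleventh was Nrg4 between Cell Suspension and Liver (1.01, adjusted p = 0.018). As stated above, endothelial levels of Errfi1, Met, Erbb3 and Egfr cannot be told apart from free RNA, and so neither can their differences. The part of free RNA in the differences of Nrg4 and Hbegf was not tested.

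Single samples stood apart from their group in 10 of 60 groups of 8. Chance gives about 1 in 20 for independent groups of measured values, a rate that was not worked out for these groups, which share mice and in part rest on few UMIs. In hepatocyte nuclei these were Erbb2 in the Cell Suspension sample of mouse 5 (1.32 CPM from 8 UMIs, next 0.381) and Hgf in the Primary Hepatocytes sample of mouse 6 (2.13 CPM, next 1.65). In endothelial nuclei of Liver they were Errfi1 in mouse 8 (789 CPM, next 528), Areg in mouse 2 (1.33 CPM, which is 1 UMI), Hbegf in mouse 1 (12.4 CPM from 8 UMIs) and Hgf in mouse 3 (436 CPM, next 204). In endothelial nuclei of Cell Suspension they were Areg in mouse 1 (4.92 CPM from 3 UMIs) and Hgf in mouse 3 (640 CPM, next 264), and in those of Primary Hepatocytes Hbegf in mouse 6 (45.6 CPM, next 18) and, as the lowest, Nrg4 in mouse 2 (319 CPM, next 582).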

How the results depend on the processing

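No result changed direction while called under any alternative run. In hepatocyte nuclei the 8 calls between Primary Hepatocytes and Liver held under all 21 alternatives. Genes called between Cell Suspension and Liver numbered 3138 in hepatocyte nuclei and 3324 in all nuclei when samples were thinned to the lowest total, against 5698 and 5630. In endothelial nuclei, 3818 of 6965 genes and 3 of 7 members tested were called between Primary Hepatocytes and Liver with the stricter filter of filterByExpr, and 3268 genes and 2 members with the pool as a covariate, against 6181 of 18279 genes and 5 of 10 members (Areg among the 5). Between Cell Suspension and Liver the pool as a covariate left 334 genes and 1 member, against 712 and 2. Leaving out 1 mouse at a time gave 432 to 768 genes and 1 to 2 members there, with 432 genes without mouse 1 and 469 without mouse 3. The Errfi1 call was lost without mouse 3, 4, 5 or 6 and the Nrg4 call without mouse 1. The call of Areg between Cell Suspension and Liver in hepatocyte nuclei was lost without mouse 1 (0.96, adjusted p = 0.24). In all nuclei the call of Egfr between Primary Hepatocytes and Liver was lost with the pool as a covariate (-2.33, adjusted p = 0.055). That of Erbb2 was lost with the pool as a covariate (-0.96, adjusted p = 0.086) and with spliced UMIs alone (-0.85, adjusted p = 0.061). Of the single values and calls, 952 held, 14 gained a call and 27 lost one under alternatives other than leaving out a mouse, and 834 held, 10 gained and 20 lost one without 1 mouse.

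With the mouse as a replicate block, 8 members and 14369 genes were called between Primary Hepatocytes and Liver in hepatocyte nuclei. The block added Hbegf against Cell Suspension and Nrg4 between Cell Suspension and Liver in hepatocyte nuclei, Egfr in endothelial nuclei, and Nrg4 (0.75, adjusted p = 0.023) and Hgf (-0.95, adjusted p = 0.027) between Cell Suspension and Liver in all nuclei, where 5 members were then called. It changed no other call of a member. Without the block, 1761 genes and 2 members were called by lobule side in Liver, and 1231 genes and 2 members in Cell Suspension, against 4683 and 6 and 3281 and 4. Depth limits Erbb2, Areg and Hbegf in Liver hepatocyte nuclei, which had 57, 42 and 60 UMIs. The alternative with the Cell Suspension sample of mouse 7 left out and that with cluster 8 counted as hepatocytes were chosen after seeing the data.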
